A study of Mus musculus with 48 samples.

Results

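Fatty acid oxidation and the targets of the nuclear receptor PPARα were described here through 36 genes, taken from a set list and found by Ensembl identifier among the 55416 genes counted in mouse liver. All 36 passed the filter on low counts and were among the 15711 genes tested. They comprised 18 genes of mitochondrial oxidation (11 enzymes of beta-oxidation, 4 proteins of the carnitine shuttle and 3 of electron transfer), 8 peroxisomal genes, 4 acyl-CoA thioesterases, 2 microsomal omega-hydroxylases, and a last set of 4 made up of 1 enzyme of ketone body synthesis and 3 PPARα-linked genes.

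Livers came from 48 mice of 2 studies, with 8 wild-type, 8 heterozygous and 8 homozygous littermates in each, all labelled C57Bl/6J and fed a western diet for 8 weeks from young adulthood. In the first study, mice carried 0, 1 or 2 copies of a CRISPR-Cas9 knock-in that turns LXRα, the product of Nr1h3, into a dominant negative receptor (DN:WT, DN:HET and DN:HOM). In the second they carried 0, 1 or 2 copies of a null allele of the same receptor (KO:WT, KO:HET and KO:HOM). Knock-in mice were male and descended from a CRISPR founder line, and the null allele was made elsewhere and backcrossed. Both alleles were present in every cell of the body, and the diet was shared by all groups, so no value here bears on a chow-fed liver. The studies were run at separate sites, and site cannot be told apart from allele when their effects are compared.

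Fatty acids are activated to acyl-CoA esters, carried into mitochondria as carnitine esters and shortened there by repeated rounds of dehydrogenation, hydration, a further dehydrogenation and thiolysis. Peroxisomes shorten very long and branched chains with their own set of enzymes, and microsomal Cyp4a enzymes start oxidation from the far end of the chain. In liver, much of the acetyl-CoA formed becomes ketone bodies. PPARα, bound to its partner RXR, is the receptor best known for raising many of these genes in fasting or on fibrate drugs, and it binds pairs of AGGTCA repeats spaced by 1 base. LXRα also pairs with RXR, on repeats spaced by 4 bases, and senses oxidised cholesterol.

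Reads on genes ranged from 5332897 to 16961379 per liver (median 15879971), with 2 livers under 10000000 reads (KO:HET animal 3 and KO:HOM animal 17). Levels are given as CPM, a gene's reads as parts per 1000000 of a liver's reads on genes, scaled between livers by the TMM method of edgeR, which assumes that most genes do not change. Expression of Nr1h3 was 82.1, 94.0 and 96.9 CPM in DN:WT (lowest, median and highest of 7 livers) and 68.5, 72.2 and 77.4 CPM in DN:HOM, where the receptor is altered rather than removed. In the knockout study it was 81.5, 90.2 and 108 CPM in KO:WT, 48.3, 59.7 and 65.4 CPM in KO:HET and 25.3, 26.4 and 31.1 CPM in KO:HOM, with no overlap between these 3 genotypes. All 10 hepatocyte markers had reads in all 48 livers.

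A pair of livers stood apart from their labels' groups. Over the 36 genes, the liver labelled DN:WT animal 10 summed to 5965 CPM, where the other 7 DN:WT livers held 10890 to 14530 CPM. The liver labelled DN:HOM animal 12 summed to 12900 CPM, where the other 7 DN:HOM livers held 5303 to 7807 CPM. Their macrophage marker sums were 1890 CPM in animal 10 and 203.4 CPM in animal 12. Nr1h3 was at 71.3 CPM in animal 10, within the DN:HOM range, and at 86.9 CPM in animal 12, within the DN:WT range, so for each of these measures both livers lay with the opposite homozygous group, and whether their labels hold was not tested. By matched values, both are missing from the livers behind the study's own source data on bile acid genes, where the 22 values of Nr0b2, Abcb11 and Baat each fitted a different one of the other 22 knock-in livers within 0.000476% (21 and 20 livers were matched for Slc51a and Slc51b, and values of Slc10a1 did not match). For that reason the main comparisons used the other 46 livers (7 DN:WT, 7 DN:HOM and 8 in each other group). This choice was made with earlier results of these data known and favours a difference between DN:HOM and DN:WT in these genes, so the counts of the 36 genes called are also given over all 48 livers. Neither liver was moved to another group, and statements on overlap between groups hold for the 46.

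In DN:HOM livers, most of the listed genes of fatty acid oxidation were lower. Of the 36 genes, 31 fell and 0 rose against DN:WT at an adjusted p under 0.05 (edgeR's quasi-likelihood F test, Benjamini-Hochberg adjusted over all genes tested), where 30% of all genes tested fell and 29.1% rose. The median log2 fold change of the 36 was −0.76 (range −3.95 to 0.82), and that of all genes was −0.01. For 28 of the 36, the highest of the 7 DN:HOM livers lay below the lowest of the 7 DN:WT livers, which was so for 15.8% of all genes. With all 48 livers it was so for 0 of the 36 and 0.0640% of all genes. Only 10 of the 31 fell by 2-fold or more, namely Cyp4a10, Cyp4a14, Acot1, Acot3, Acot4, Acaa1b, Abcd3, Pex11a, Ehhadh and Hsd17b4, all of them peroxisomal, thioesterase or omega-oxidation genes. Over all 48 livers, 30 fell and the median was −0.57 (25.0% of all genes fell). With library size alone as scaling, 23 fell and 2 rose (Abcd2 and Ppargc1a), where 11.1% of all genes fell and 59.1% rose, and of the 31, Acadl, Hadhb and Acot8 turned slightly positive and Acadvl, Cpt1a, Crat, Acaa1a and Bdh1 lost their call. Reads assigned to no gene made up 26.2 to 34.3% in DN:WT and 24.7 to 26.7% in DN:HOM (24.3 to 33% in KO:WT and 24.3 to 29.1% in KO:HOM), and the part of this measure in these values was not tested. Whole liver was sequenced, so fewer hepatocytes and less of these RNAs per hepatocyte cannot be told apart.

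**Figure D1:**
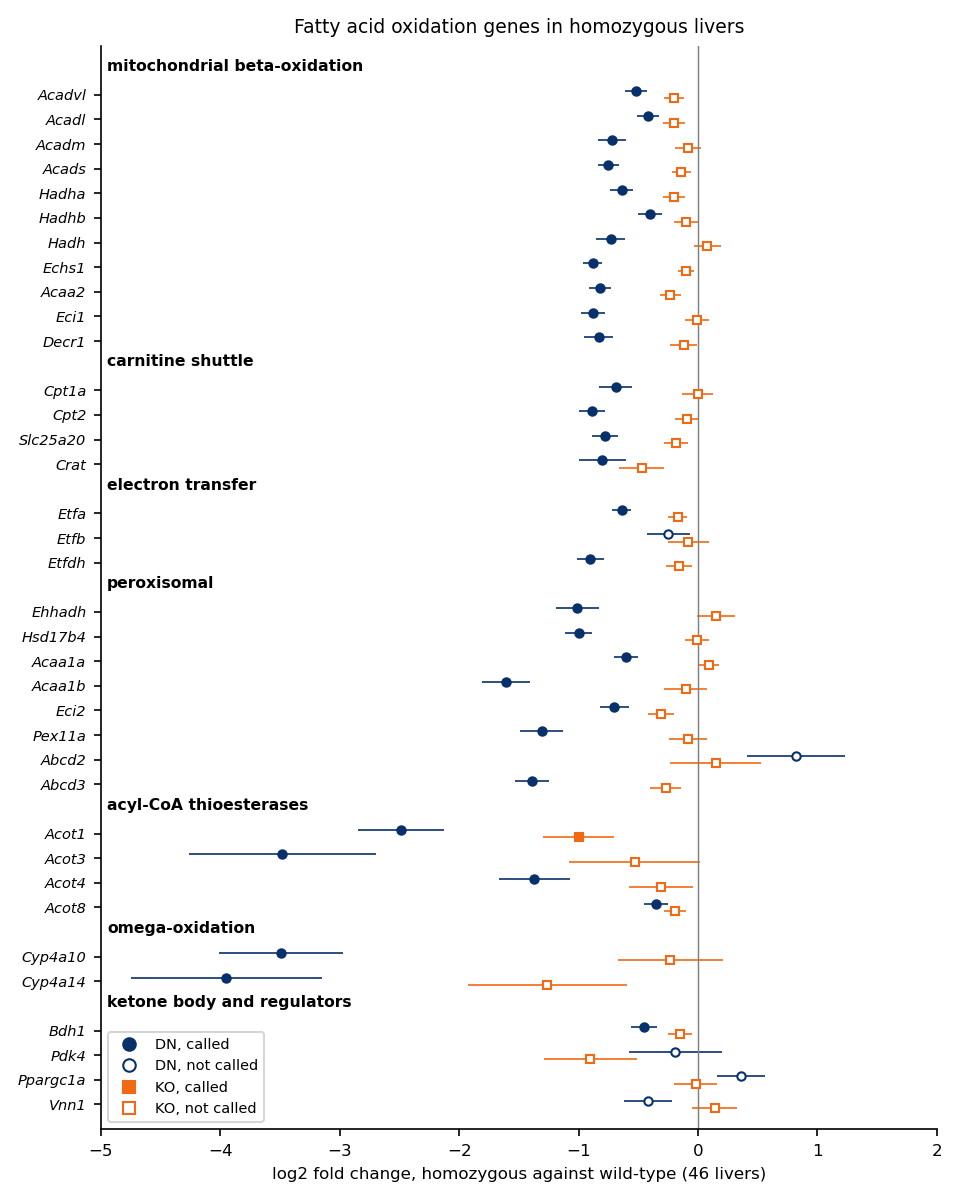
Log2 fold change (x axis, with bars of 1 standard error) of each of the 36 genes, by class, in DN:HOM against DN:WT (blue circles) and KO:HOM against KO:WT (orange squares) over 46 livers, with filled symbols for genes past an adjusted p of 0.05. The 31 filled circles lie left of 0, between −3.95 and −0.35, and Acot1 is the 1 filled square, although with library size alone as scaling Acadl, Hadhb and Acot8 would lie just right of 0 in DN:HOM.

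Of the 18 mitochondrial genes, 17 fell in DN:HOM, where 30% of all genes did, with a median log2 fold change of −0.74 and a range of −0.90 to −0.25 (Acadl and Hadhb turned slightly positive with library size alone as scaling). Their summed level had lowest, median and highest values of 4887, 5448 and 5960 CPM in DN:WT and 2913, 3250 and 4107 CPM in DN:HOM, without overlap. In the knockout study the same sum was 5004, 6025 and 6929 CPM in KO:WT and 4804, 5653 and 6415 CPM in KO:HOM, which overlapped almost entirely.

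Among the acyl-CoA dehydrogenases, which take the opening step of each round, the short-chain enzyme Acads moved furthest, from 168, 198 and 204 CPM in DN:WT to 104, 110 and 129 CPM in DN:HOM (lowest, median and highest, as throughout), a log2 fold change of −0.75 (SE 0.09, adjusted p = 1.31e-09). The medium-chain enzyme Acadm went from 388, 439 and 516 CPM to 226, 271 and 331 CPM, or −0.72 (SE 0.12, adjusted p = 1.99e-06). The very long-chain enzyme Acadvl went from 421, 448 and 506 CPM to 289, 306 and 353 CPM, or −0.52 (SE 0.09, adjusted p = 1.51e-06). In each of these 3 genes the DN:HOM livers all lay below the DN:WT livers. The long-chain enzyme Acadl also fell, at −0.42 (adjusted p = 0.000158) on the log2 scale, but its groups overlapped through DN:HOM animal 33, at 215 CPM against a lowest DN:WT liver of 204 CPM.

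Hadha and Hadhb encode the subunits of the trifunctional protein, which carries out the remaining steps for long chains. Hadha went from 362, 408 and 430.4 CPM to 224, 257 and 295 CPM, a log2 fold change of −0.64 (SE 0.10, adjusted p = 1.78e-07). Hadhb fell, at a log2 fold change of −0.40 (adjusted p = 0.000995), with overlapping groups, and 53.2% of the 100-base windows of its transcripts also occur in the pseudogene Hadhb-ps or in Gm9108, so its reads may not all be its own. For the shorter chains, the hydratase Echs1 went from 235, 254 and 291 CPM to 119, 137 and 175 CPM, or −0.88 (SE 0.08, adjusted p = 1.36e-12). The dehydrogenase Hadh went from 354, 427 and 497 CPM to 225, 246 and 296 CPM, or −0.73 (SE 0.12, adjusted p = 1.04e-06). The thiolase Acaa2 went from 807, 876 and 972 CPM to 401, 486 and 626 CPM, or −0.82 (SE 0.09, adjusted p = 3.9e-10). In DN:WT Acaa2 was the most abundant mitochondrial gene of the list per kilobase of exon. In DN:HOM Acadvl lay above it (medians of 77.8 and 75.2 CPM per kilobase). Hadha, Echs1, Hadh and Acaa2 had no overlap between the genotypes, and all of these enzymes fell by under 2-fold.

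The auxiliary enzymes for unsaturated chains behaved alike. The isomerase Eci1 went from 165, 187 and 214 CPM to 84.4, 96.7 and 131 CPM, a log2 fold change of −0.88 (SE 0.10, adjusted p = 1.23e-09), and the reductase Decr1 from 213, 249.8 and 302 CPM to 123, 135 and 177 CPM, or −0.83 (SE 0.12, adjusted p = 8.65e-08). Neither overlapped between DN:WT and DN:HOM, and Eci1 was at 148 to 202 CPM in KO:WT and 149 to 198 CPM in KO:HOM.

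All 4 genes of the carnitine shuttle fell in DN:HOM, where 30% of all genes did, although Cpt1a and Crat lost their call with library size alone as scaling. Cpt1a, the outer membrane transferase that limits the rate of entry, went from 399.9, 431 and 625 CPM to 232, 279.5 and 368 CPM, a log2 fold change of −0.69 (SE 0.14, adjusted p = 6.41e-05). Its inner membrane counterpart Cpt2 went from 150.1, 166 and 176 CPM to 76.4, 81.6 and 119.5 CPM, or −0.89 (SE 0.11, adjusted p = 1.12e-09). The carrier between them, Slc25a20, went from 128, 145 and 162 CPM to 65.7, 81.7 and 101 CPM, or −0.78 (SE 0.11, adjusted p = 3.97e-08). Crat, which acts on short acyl groups, went from 62.5, 77.7 and 94.8 CPM to 40.0, 44.7 and 58.1 CPM, or −0.80 (SE 0.20, adjusted p = 0.000717), and was the shuttle gene with the largest change in KO:HOM, where 44.0, 64.1 and 126 CPM in KO:WT compared with 35.3, 49.9 and 76.8 CPM in KO:HOM (−0.47 (SE 0.19, adjusted p = 0.0756)). Over the 46 livers, no shuttle gene overlapped between DN:WT and DN:HOM (15.8% of all genes were lower without overlap), and all 4 overlapped between KO:WT and KO:HOM, as did nearly all genes.

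Electrons from the dehydrogenases pass through the flavoprotein of Etfa and Etfb to the ubiquinone oxidoreductase Etfdh. Etfdh went from 286, 326 and 365 CPM to 142, 178 and 236 CPM, a log2 fold change of −0.90 (SE 0.11, adjusted p = 5.19e-09), and Etfa from 352, 381 and 399.9 CPM to 201, 236 and 299 CPM, or −0.64 (SE 0.08, adjusted p = 7.04e-09), both without overlap. Etfb was counted at only 2.62 to 7.04 CPM in all groups, and did not pass the test (−0.25 (SE 0.18, adjusted p = 0.228)). It shares 65.2% of its windows, and exons on the same strand, with Etfbl, so its low count does not measure Etfb well.

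Promoter sequence was read for the genes because PPARα acts through direct repeats near its targets, and 4 windows are shown, for the peroxisomal gene and the omega-hydroxylases with the largest falls and for Echs1, 1 of the 2 genes with the closest match. The window was the 300 bases before the start of the gene's canonical transcript (GENCODE, GRCm39), read in the direction of transcription, and the capitals mark the stretch closest to AGGTCANAGGTCA (DR1, 12 fixed letters, both strands). Echs1, the mitochondrial beta-oxidation gene with a log2 fold change of −0.88, had the nearest match of the 4 shown, with 2 mismatches at 28 to 16 bases before the start (chr7:139696390-139696689, minus strand). The annotated gene of Echs1 begins further upstream, so part of this window, the marked stretch included, lies within it.
Echs1: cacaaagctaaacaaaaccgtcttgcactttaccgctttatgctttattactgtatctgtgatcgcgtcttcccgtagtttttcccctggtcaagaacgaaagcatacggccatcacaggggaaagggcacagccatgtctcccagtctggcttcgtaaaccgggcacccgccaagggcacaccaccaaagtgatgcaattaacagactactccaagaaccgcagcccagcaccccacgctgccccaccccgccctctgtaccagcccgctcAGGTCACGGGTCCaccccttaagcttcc
A stretch with at most 2 mismatches to DR1 was found in 2 of the 36 genes (Echs1 and Vnn1, 5.56%) and in 722 of 21626 promoters of the same length (3.34%). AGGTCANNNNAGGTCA (DR4, the LXR spacing, which shares its repeat unit with DR1) was found with at most 2 mismatches in Acadvl and Cyp4a10 (5.56%) and in 644 of all promoters (2.98%). An exact DR1 was in 8 of the 21626 promoters and in none of the 36. Of the 86 further genes of these pathways described below, 9 (10.5%) had a DR1 stretch with at most 2 mismatches. A DR4 stretch with at most 2 mismatches was in 8 of the 86 (9.3%). These shares were not tested against that of all promoters.

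Of the 8 peroxisomal genes, 7 fell in DN:HOM, where 30% of all genes did, and their median log2 fold change was −1.01, against −0.74 for the mitochondrial genes. Their summed level was 5201, 5976 and 7068 CPM in DN:WT and 1958, 2445 and 3125 CPM in DN:HOM, against 3769, 4508 and 7004 CPM in KO:WT and 3829, 4307 and 6003 CPM in KO:HOM. In the 7 DN:HOM livers the peroxisomal sum was below the mitochondrial sum of the same liver each time, whereas in DN:WT its median was above that of the mitochondrial sum (5976 against 5448 CPM). This order was not particular to DN:HOM. The median peroxisomal sum was also below the mitochondrial one in KO:WT (4508 against 6025 CPM) and KO:HOM (4307 against 5653 CPM). Acaa1b alone had a median of 3271 CPM in DN:WT, a large part of the peroxisomal sum. The difference between the classes was not tested, as the genes of a class are not replicates.

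Acaa1b and Acaa1a are neighbouring genes on chromosome 9 for the peroxisomal thiolase, which ends each round. Acaa1b had the highest level per kilobase of all 36 genes (a median of 713 CPM per kilobase in DN:WT) and the largest fall among the peroxisomal genes, from 2918, 3271 and 4227 CPM in DN:WT to 783, 1079 and 1348 CPM in DN:HOM, or 3.05-fold (log2 −1.61 (SE 0.20, adjusted p = 3.79e-09)). Acaa1a went from 267, 295 and 343 CPM to 149.5, 201 and 233 CPM, a log2 fold change of −0.60 (SE 0.10, adjusted p = 1.65e-06). All DN:HOM livers lay below all DN:WT livers for both, although 22.6% of Acaa1b windows and 21.1% of Acaa1a windows occur in the other gene. The window before Acaa1b (chr9:118986162-118986461, minus strand) is shown because this gene supplies the most reads, and its nearest DR1 stretch had 4 mismatches, on the opposite strand at 183 to 171 bases before the start.
Acaa1b: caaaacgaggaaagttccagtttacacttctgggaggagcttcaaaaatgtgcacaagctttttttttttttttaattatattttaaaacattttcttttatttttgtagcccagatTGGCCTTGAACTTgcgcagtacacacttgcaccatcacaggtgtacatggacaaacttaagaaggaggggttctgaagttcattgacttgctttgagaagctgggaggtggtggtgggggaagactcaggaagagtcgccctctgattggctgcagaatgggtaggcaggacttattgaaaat

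The bifunctional enzymes Ehhadh and Hsd17b4 each carry out the hydration and the second dehydrogenation, Hsd17b4 mainly for branched chains. Ehhadh went from 437, 622 and 677 CPM to 239.5, 259 and 458 CPM, a log2 fold change of −1.01 (SE 0.18, adjusted p = 4.5e-06). Hsd17b4 went from 541, 671 and 717 CPM to 274, 317 and 404 CPM, or −1.0 (SE 0.11, adjusted p = 1.55e-10), with no overlap. Ehhadh overlapped through DN:HOM animal 33 alone, at 458 CPM where the other 6 DN:HOM livers held 240 to 306 CPM.

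Of 3 genes for peroxisome membrane proteins, Abcd3 and Pex11a fell. The transporter Abcd3, which admits long and branched acyl-CoA, went from 590.3, 721 and 887 CPM to 229, 255 and 403 CPM, 2.63-fold lower (log2 −1.39 (SE 0.14, adjusted p = 2.96e-11)). Pex11a, which promotes peroxisome division, went from 121, 150.1 and 197 CPM to 49.3, 57.4 and 73.6 CPM, 2.48-fold lower (log2 −1.31 (SE 0.18, adjusted p = 2.3e-08)). Neither overlapped between DN:WT and DN:HOM. The related transporter Abcd2 was the exception among the peroxisomal genes, at 2.89, 10.1 and 30.8 CPM in DN:WT and 12.8, 22.9 and 30.7 CPM in DN:HOM (0.82 (SE 0.41, adjusted p = 0.0851)), with wide overlap. The isomerase Eci2 went from 182, 190.1 and 199.7 CPM to 97.0, 108 and 174 CPM, a log2 fold change of −0.70 (SE 0.12, adjusted p = 4.43e-06), and had the largest change of the peroxisomal genes in KO:HOM, where 195, 258 and 298 CPM in KO:WT compared with 179, 190.3 and 242 CPM in KO:HOM (−0.31 (SE 0.11, adjusted p = 0.0545)). Eci2 is found in mitochondria as well as peroxisomes and was listed here with the latter.

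Thioesterases release free fatty acids from acyl-CoA. The cytosolic Acot1 and the peroxisomal Acot3 and Acot4 lie together on chromosome 12 and share sequence, with 21.8% of the windows of Acot1, 34.5% of those of Acot3 and 5.83% of those of Acot4 found in a neighbour. Exons of Acot3 and Acot4 also overlap those of Gm49366 on the same strand, which limits how well their counts measure them. In DN:HOM all 4 thioesterases fell, where 30% of all genes did, with a median log2 fold change of −1.93. Acot8 turned slightly positive with library size alone as scaling. Acot1 went from 18.3, 29.9 and 36.7 CPM to 3.31, 4.38 and 7.74 CPM, 5.63-fold lower (log2 −2.49 (SE 0.36, adjusted p = 8.38e-08)). Acot3 went from 2.07, 3.96 and 27.5 CPM to 0.0943, 0.569 and 1.28 CPM, 11.2-fold lower (log2 −3.48 (SE 0.78, adjusted p = 0.000183)). Acot4 went from 48.9, 69.5 and 139 CPM to 20.7, 29.6 and 36 CPM, 2.59-fold lower (log2 −1.37 (SE 0.30, adjusted p = 0.000125)). With all 48 livers the log2 fold changes were −1.53 for Acot1 and −2.72 for Acot3. Over the 46 livers these 3 had no overlap, where 15.8% of all genes were lower without overlap. The Acot3 levels in DN:HOM rest on few reads. Acot8, a peroxisomal enzyme encoded apart from the others, had a log2 fold change of only −0.35 (adjusted p = 0.0022).

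The omega-hydroxylases Cyp4a10 and Cyp4a14, among the most responsive PPARα targets in mouse liver, showed the largest falls of the 36 genes over the 46 livers, with that of Cyp4a10 all but equal to that of Acot3 (−3.48). With all 48 livers Acot3 fell furthest (−2.72). Cyp4a10 went from 156, 312 and 414 CPM in DN:WT to 7.45, 19.3 and 82.4 CPM in DN:HOM, 11.2-fold lower (log2 −3.49 (SE 0.52, adjusted p = 2.34e-07)). Cyp4a14 went from 55.2, 90.2 and 319 CPM to 1.41, 7.15 and 31.6 CPM, 15.5-fold lower (log2 −3.95 (SE 0.80, adjusted p = 4.33e-05)). The groups did not overlap, and DN:HOM animal 33 was again the highest of its group, at 82.4 CPM of Cyp4a10 where the other 6 held 7.45 to 22.9 CPM. Over all 48 livers the log2 fold changes were −1.66 for Cyp4a10, which was still called, and −1.79 for Cyp4a14, which was not. The liver labelled DN:WT animal 10 held 19.7 CPM of Cyp4a10 and 7.19 CPM of Cyp4a14, and that labelled DN:HOM animal 12 held 489.5 and 233 CPM. Of the windows of Cyp4a10, 15.6% occur in Cyp4a32 or Cyp4a31.

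Cyp4a10 and Cyp4a14 lie close to each other on chromosome 4, on opposite strands. Their windows (chr4:115375161-115375460, plus strand, and chr4:115353345-115353644, minus strand) are shown for the size of their falls, again with the stretch nearest to DR1 in capitals. In Cyp4a10 it had 3 mismatches, on the opposite strand at 76 to 64 bases before the start, and in Cyp4a14 it had 4 mismatches at 94 to 82 bases before the start.
Cyp4a10: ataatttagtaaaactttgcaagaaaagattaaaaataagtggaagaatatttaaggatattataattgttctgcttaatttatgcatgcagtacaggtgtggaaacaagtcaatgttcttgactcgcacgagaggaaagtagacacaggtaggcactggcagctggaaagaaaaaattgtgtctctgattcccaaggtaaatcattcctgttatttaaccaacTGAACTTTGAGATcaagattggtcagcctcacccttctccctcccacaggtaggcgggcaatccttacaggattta
Cyp4a14: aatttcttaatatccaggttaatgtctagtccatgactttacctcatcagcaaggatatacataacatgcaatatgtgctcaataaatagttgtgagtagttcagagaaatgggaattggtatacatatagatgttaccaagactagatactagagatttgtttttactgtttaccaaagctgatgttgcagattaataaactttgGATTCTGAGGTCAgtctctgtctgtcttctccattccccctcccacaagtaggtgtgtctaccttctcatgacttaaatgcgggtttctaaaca
These counts of mismatches describe the letters in the windows and carry no statement on binding.

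**Figure D2:**
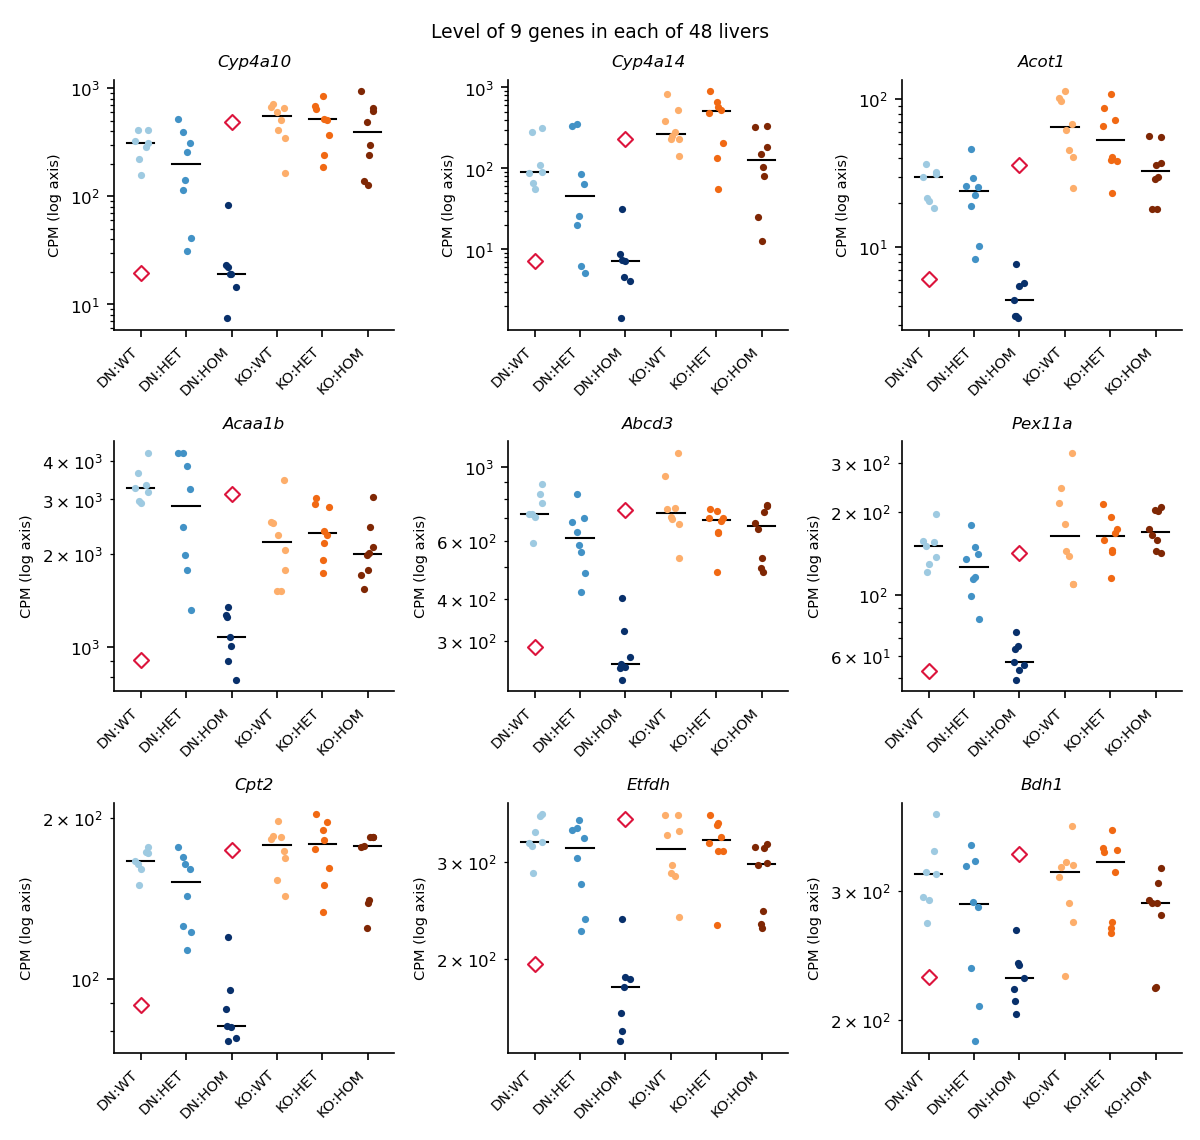
TMM-scaled CPM (y axis, logarithmic) of 9 genes in each of 48 livers by genotype (x axis), with a line at the median of the 46 livers used in the main comparisons and open diamonds for DN:WT animal 10 and DN:HOM animal 12. Apart from the diamonds, the DN:HOM livers lie below the DN:WT livers for all 9 genes (Cyp4a10 at 7.45 to 82.4 CPM against 156 to 414 CPM), whereas the KO:HOM and KO:WT livers overlap.

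In the last set of 4, 1 gene fell in DN:HOM, where 30% of all genes did. Bdh1, which interconverts the ketone bodies acetoacetate and 3-hydroxybutyrate, went from 272, 317 and 383 CPM in DN:WT to 204, 228 and 265 CPM in DN:HOM, a log2 fold change of −0.45 (SE 0.11, adjusted p = 0.000549), without overlap. Pdk4, a kinase that shuts down pyruvate dehydrogenase when fatty acids are burned, was at 7.22, 12.7 and 18.6 CPM and 7.04, 9.37 and 15.3 CPM (−0.19 (SE 0.39, adjusted p = 0.692)). The coactivator Ppargc1a was at 5.78, 6.88 and 7.89 CPM and 7.02, 7.72 and 13.4 CPM (0.36 (SE 0.20, adjusted p = 0.12)). Of these 3, only Bdh1 passed the test. The pantetheinase Vnn1, a PPARα target in liver, was at 114, 141 and 156 CPM and 84.7, 103 and 122 CPM (−0.42 (SE 0.20, adjusted p = 0.0709)), and its groups overlapped. With library size alone as scaling, Bdh1 was no longer called (log2 −0.02) and Ppargc1a was called higher (0.78).

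**Figure D3:**
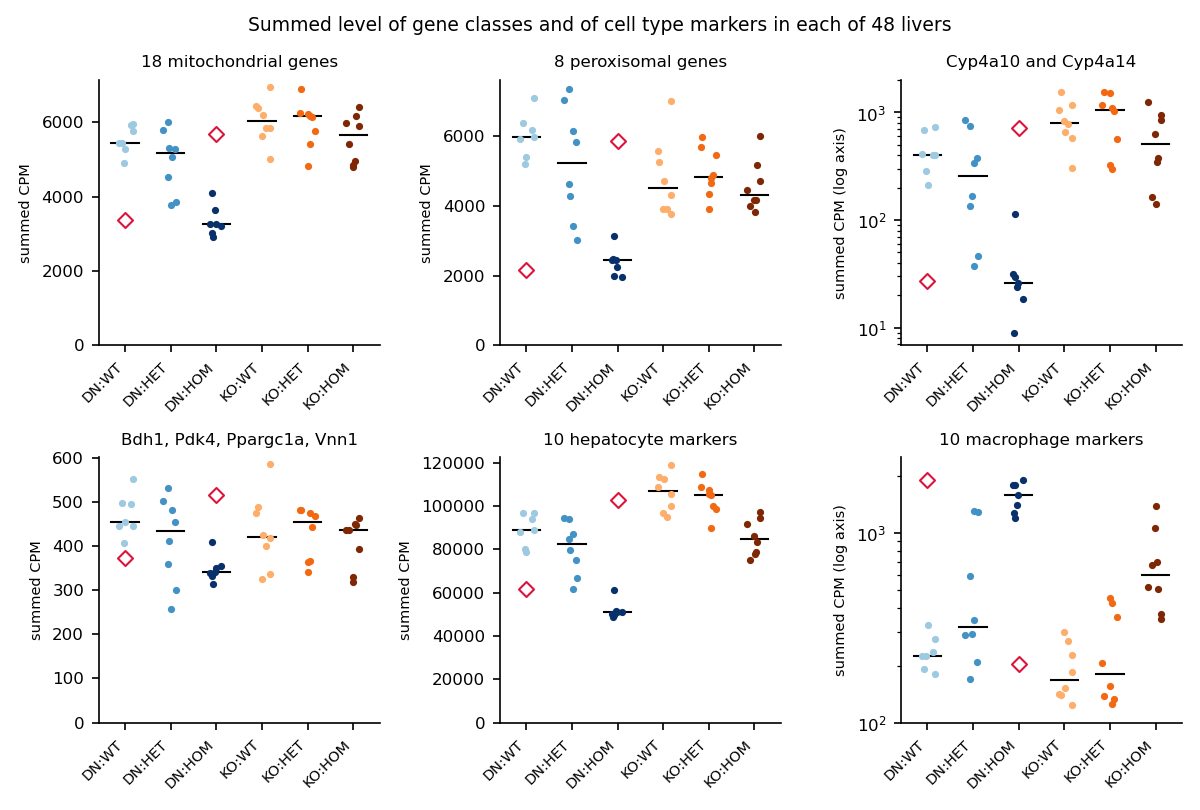
Summed TMM-scaled CPM (y axis) of the genes of 4 classes and of hepatocyte and macrophage markers in each of 48 livers by genotype (x axis), with a line at the median of the 46 livers used in the main comparisons, open diamonds for DN:WT animal 10 and DN:HOM animal 12, and logarithmic axes where labelled. The DN:HOM livers other than the diamond lie below the DN:WT livers for the mitochondrial (2913 to 4107 CPM) and peroxisomal sums (1958 to 3125 CPM) and for hepatocyte markers, and above them for macrophage markers (1201 to 1890 CPM).

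Beyond Bdh1, a list of 8 further genes covered the synthesis, use and transport of ketone bodies, of which 7 were tested. In DN:HOM 4 of the 7 fell and 2 rose, against 30% and 29.1% of all genes. The thiolase Acat1 (log2 fold change −1.09 (adjusted p = 2.46e-11)) and the dehydrogenase Bdh2 (−1.17 (adjusted p = 7.43e-07)) were among those that fell. Oxct1, the enzyme of ketone body use that liver largely lacks, rose from 1.98, 2.76 and 3.77 CPM to 12.5, 16.7 and 21.1 CPM, or 2.60 (SE 0.32, adjusted p = 3.27e-09), and also rose in KO:HOM (1.35 (SE 0.29, adjusted p = 0.000718)). Slc16a1, a monocarboxylate transporter, rose by 0.37 on the log2 scale, a call lost over all 48 livers. Whole liver was sequenced, and the part of other cell types in these rises was not tested.

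PPARα itself is not among the 36. Ppara went from 76.3, 115 and 165 CPM in DN:WT to 31.1, 40.7 and 54.1 CPM in DN:HOM, a log2 fold change of −1.47 (SE 0.17, adjusted p = 5.66e-10). The groups did not overlap, and in KO:HOM Ppara did not pass the test, at −0.21 (adjusted p = 0.359).

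In all, 86 further genes of these pathways were listed and 83 tested. In DN:HOM 62 fell and 6 rose (median log2 fold change −0.75), where 30% of all genes fell and 29.1% rose. In KO:HOM 13 fell and 4 rose (median −0.13), where 7.87% of all genes fell and 11.5% rose. With library size alone as scaling these counts were 47 and 12 in DN:HOM (11.1% and 59.1% of all genes) and 6 and 9 in KO:HOM (2.78% and 16.7%). They were 60 and 5 in DN:HOM (25.0% and 23% of all genes) and 6 and 3 in KO:HOM (4.12% and 8.79%) over all 48 livers. By group, 27 of 31 other peroxisomal genes, 12 of 15 other mitochondrial genes, 13 of 19 other PPARα targets and 6 of 11 regulators fell in DN:HOM. Of the 83, 28 fell and 5 rose by 2-fold or more in DN:HOM. Besides genes already given, falls of this size in mitochondrial genes included the dehydrogenase Hsd17b10 (−1.77), the acyl-CoA synthetase Acsl1 (−1.89) and the propionate genes Pcca (−1.27), Pccb (−1.07) and Mmut (−1.15). In peroxisomes they included Hacl1 (−2.01), Nudt7 (−1.81), Pex16 (−1.33), Pecr (−1.23), Slc27a2 (−1.21), Scp2 (−1.02) and Pex11g (−1.01). This was so for PPARα targets of lipid handling as well, led by the monoglyceride lipase Mgll (−2.55) and the lipase inhibitor G0s2 (−2.55), with the fatty acid binding protein Fabp1 (−1.93), the uptake receptor Cd36 (−1.55), Retsat (−1.79), Aldh3a2 (−1.46), Cyp4a12a (−1.81), Cyp4a12b (−1.87) and Cyp4a32 (−1.86). Rises of 2-fold or more were seen for Oxct1, the mitochondrial acetyl-CoA synthetase Acss1 (2.55), the carnitine palmitoyltransferase Cpt1c (2.36), which is best known from brain, the uncoupling protein Ucp2 (1.91) and the fatty acid transporter Slc27a1 (1.44). Fgf21 (0.05 (adjusted p = 0.915)) and Angptl4 (−0.29 (adjusted p = 0.34)), secreted products of PPARα targets, did not pass the test.

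**Figure D4:**
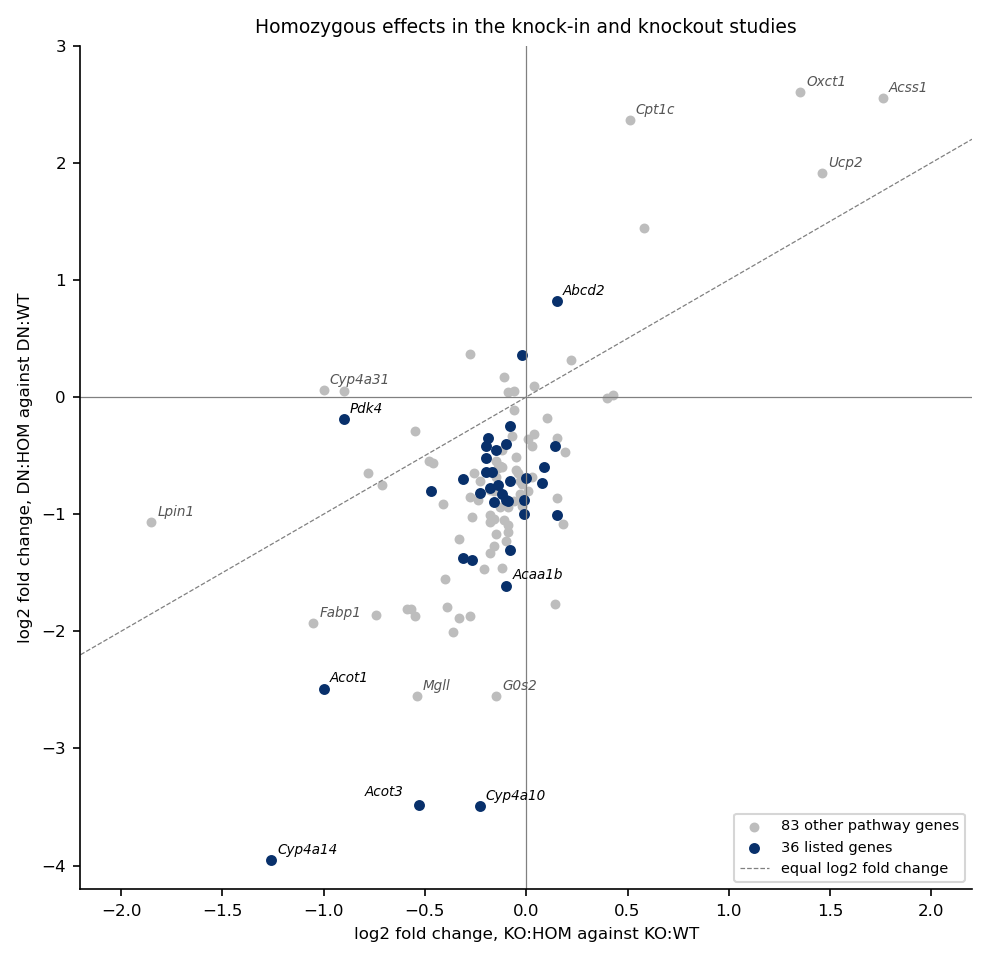
Log2 fold change in DN:HOM against DN:WT (y axis) and in KO:HOM against KO:WT (x axis) of the 36 genes (blue) and of 83 further genes of the same pathways (grey) over 46 livers, with a dashed line where both are equal. Most points lie below the dashed line and near 0 on the x axis, with medians of −0.76 (y) and −0.15 (x) for the 36 genes, while Oxct1, Acss1 and Ucp2 lie high in both comparisons.

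In KO:HOM livers the same 36 genes moved little. Against KO:WT, 1 fell (Acot1) and 0 rose, where 7.87% of all genes tested fell and 11.5% rose. The median log2 fold change was −0.15 (range −1.26 to 0.15), 31 of 36 were negative, and 11 of 36 had an unadjusted p under 0.05, against 31.6% of all genes. Groups overlapped for all 36, and did not for 0.369% (lower) and 2.18% (higher) of all genes. Over all 48 livers, which change the shared estimate of the spread, 0 of 36 were called by edgeR, 5 had an unadjusted p under 0.05 (26.3% of all genes), and 4.12% of all genes fell. The log2 fold change of Acot1 was then −0.99, close to its value over 46 livers.

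Acot1 went from 25.3, 64.9 and 113 CPM in KO:WT to 18, 32.8 and 56.4 CPM in KO:HOM, a log2 fold change of −1.0 (SE 0.30, adjusted p = 0.0147). Cyp4a14 had the largest change, with 141, 266 and 839.9 CPM in KO:WT and 12.7, 128 and 336 CPM in KO:HOM, but did not pass the test (−1.26 (SE 0.67, adjusted p = 0.191)). Its levels in KO:HOM reached from well below the KO:WT range to within it. Cyp4a10 was at 164, 549.6 and 708 CPM in KO:WT and 127, 389 and 934 CPM in KO:HOM (−0.23 (SE 0.44, adjusted p = 0.766)). Pdk4 led the ketone body and regulator set at −0.90 (SE 0.39, adjusted p = 0.0968), and in KO:WT its levels spanned 2.52 to 27.7 CPM.

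The further pathway genes with a 2-fold or greater change in KO:HOM were few. Fabp1 fell from 3125, 3943 and 4529 CPM to 1238, 1851 and 2329 CPM, a log2 fold change of −1.05 (SE 0.15, adjusted p = 6.58e-06), with no overlap. Lpin1, a phosphatidate phosphatase and coactivator of PPARα, went from 56.3, 405 and 1063 CPM to 38.4, 70.5 and 451 CPM, with overlap, a log2 change of −1.85 (adjusted p = 0.00385). Cyp4a31 fell, at a log2 fold change of −1.0 (adjusted p = 0.015). Those that rose were Oxct1, Acss1 (1.76 (adjusted p = 0.000133)) and Ucp2 (1.46 (adjusted p = 0.000214)). All 3 also rose in DN:HOM.

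**Figure D5:**
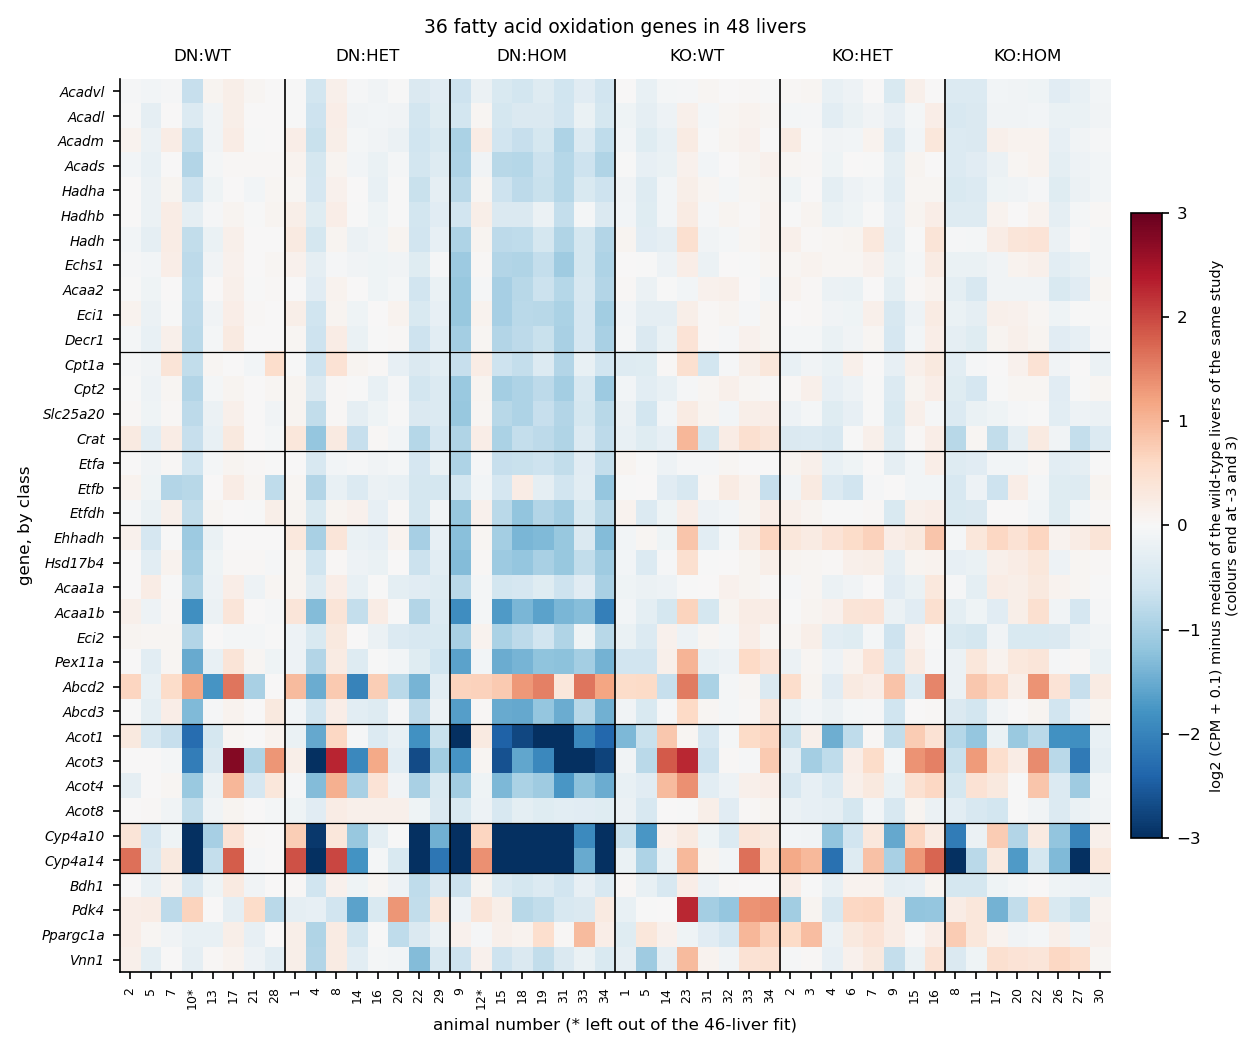
Log2 of TMM-scaled CPM plus 0.1 minus the median of the wild-type livers of the same study, for the 36 genes (rows, by class) in 48 livers (columns, by genotype and animal number, with asterisks for the livers outside the main comparisons) and colours from −3 (blue) to 3 (red). The DN:HOM columns other than animal 12 are blue in nearly all rows, as are DN:WT animal 10 and, more faintly, DN:HET animals 4 and 22, while the KO:HOM columns are paler, with the strongest colours in single livers of the Cyp4a14, Acot3, Cyp4a10, Acot1, Pdk4 and Abcd2 rows.

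For most of these genes the log2 fold change was lower in DN:HOM than in KO:HOM. In a test of the difference between the effects (the log2 fold change in the knock-in study minus that in the knockout study), 25 of 36 were lower and 0 higher, where 18.3% of all genes tested were lower and 16.5% higher. The median difference was −0.66 on the log2 scale. By class, it was lower for 14 of 18 mitochondrial genes (median −0.60), 6 of 8 peroxisomal genes (median −1.06), 3 of 4 thioesterases (median −1.28), both omega-hydroxylases (median −2.97) and 0 of the last set of 4 (median 0.04). Over all 48 livers, 9 were lower (6.42% of all genes), with a median of −0.48. With library size alone as scaling, 18 were lower and 1 higher (Ppargc1a), where 8.50% of all genes were lower and 37.7% higher, and the median was −0.35. The same difference for the 10 hepatocyte markers had a median of −0.48 (range −1.65 to 0.39), and 23 of the 36 genes lay below that median and 3 below the lowest marker. The part of these markers in the difference was not tested. With the liver labelled DN:WT animal 10 left out of the 48, 17 were lower, and with DN:HOM animal 12 left out, 22 were lower.

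The 9 genes lower in this test over both sets of livers were 4 mitochondrial and 5 peroxisomal ones, and they were called in each of the 11 other settings in which the test could be run. Eci1 differed by −0.88 (SE 0.14, adjusted p = 5.01e-06), Hadh by −0.81 (SE 0.16, adjusted p = 0.000106) and Echs1 by −0.78 (SE 0.11, adjusted p = 3.04e-07). For Hadh, levels were 339 to 591 CPM in KO:WT and 377 to 562 CPM in KO:HOM, against 354 to 497 CPM in DN:WT and 225 to 296 CPM in DN:HOM. Cpt2 differed by −0.80 (SE 0.14, adjusted p = 2.2e-05). In peroxisomes, Acaa1b differed by −1.51 (SE 0.27, adjusted p = 2.08e-05), Pex11a by −1.23 (SE 0.24, adjusted p = 6.84e-05) and Ehhadh by −1.15 (SE 0.24, adjusted p = 0.000199). Acaa1b was at 1512 to 3475 CPM in KO:WT and 1544 to 3058 CPM in KO:HOM, levels that the 7 DN:HOM livers did not reach (783 to 1348 CPM). Hsd17b4 differed by −0.99 (SE 0.15, adjusted p = 1.06e-06) and Acaa1a by −0.69 (SE 0.14, adjusted p = 8.49e-05).

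The other 16 genes were lower in this test over the 46 livers and not over all 48. The Cyp4a genes differed by −3.25 (SE 0.67, adjusted p = 0.000151) for Cyp4a10 and −2.69 (SE 0.99, adjusted p = 0.0309) for Cyp4a14, which became −1.44 and −0.54 over all 48. Acot3 differed by −2.95 (SE 0.96, adjusted p = 0.0142), Acot1 by −1.49 (SE 0.46, adjusted p = 0.00948), Acot4 by −1.06 (SE 0.40, adjusted p = 0.0364) and Abcd3 by −1.12 (SE 0.19, adjusted p = 1.15e-05). With all 48 livers the difference was −2.2 for Acot3 and −0.54 for Acot1. The KO:HOM livers held 484 to 766 CPM of Abcd3 against 532 to 1101 CPM in KO:WT. The remaining 10 were mitochondrial (Acadvl, Acadm, Acads, Hadha, Acaa2, Decr1, Cpt1a, Slc25a20, Etfa and Etfdh), with differences from −0.74 for Etfdh to −0.32 for Acadvl. Outside the list, the difference was called for Ppara (−1.25 (SE 0.23, adjusted p = 2.69e-05)), although over all 48 livers it was no longer called. The difference was not called for Bdh1 (−0.30 (SE 0.15, adjusted p = 0.12)), Crat (−0.33 (SE 0.28, adjusted p = 0.373)) or Pdk4 (0.71 (SE 0.55, adjusted p = 0.339)).

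With a single altered allele, no gene of the 36 passed the test. In DN:HET, edgeR and DESeq2 each called 0 of 36, and 3 had an unadjusted p under 0.05 by edgeR (Abcd3, Acadvl and Etfa), against 2.30% of all genes called in either direction and 13.3% with an unadjusted p under 0.05. The median log2 fold change was −0.19, and 35 of 36 were negative. With all 48 livers, edgeR called 0 of 36 and 0 had an unadjusted p under 0.05 (0.250% and 6.66% of all genes), and 34 were negative. In KO:HET, both tools called 0, and 1 gene (Pdk4, −0.92 (SE 0.39, adjusted p = 0.714)) had an unadjusted p under 0.05, where 0.0191% of all genes were called and 6.24% had such a p. The median was −0.03.

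DN:HET livers were far from alike. Cyp4a10 was at 31.4, 199 and 517 CPM and Cyp4a14 at 5.13, 45.5 and 359 CPM, so that the lowest DN:HET livers lay within the DN:HOM range and the highest above the DN:WT range. Of the 31 genes that fell in DN:HOM, DN:HET animals 4 and 22 each had 21 at or below the highest DN:HOM liver, and animal 29 had 10, whereas the other 5 had 0 to 4. Animal 8 had all 31 within or above the DN:WT range. In animals 4 and 22 the macrophage marker sum was 1294 and 1310 CPM, where the other DN:HET livers held 169 to 590 CPM, and the hepatocyte marker sum was 66690 and 61680 CPM, where the others held 75070 to 94350 CPM. The part of these cell type markers in the values of the 36 genes was not tested.

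Markers of cell types moved with the homozygous genotypes as well. The 10 hepatocyte markers (Alb, Ttr, Apoa1, Apob, Serpina1a, Trf, Cps1, Ass1, Hnf4a and Cyp2e1) summed to 78950 to 97000 CPM in DN:WT and 48980 to 61120 CPM in DN:HOM. In DN:HOM 7 of the 10 fell and Trf rose (median log2 fold change −0.73, range −1.73 to 0.34), and in KO:HOM 5 fell (median −0.32), with sums of 95200 to 119100 CPM in KO:WT and 75370 to 97330 CPM in KO:HOM. Of all genes tested, 30% fell and 29.1% rose in DN:HOM, and 7.87% fell in KO:HOM. Of the 36 genes, 19 lay below the median of these markers in DN:HOM, including 9 of 18 mitochondrial genes, 5 of 8 peroxisomal genes, both omega-hydroxylases and none of the last set of 4. Only Cyp4a10, Cyp4a14, Acot1 and Acot3 fell by more than the marker with the largest fall, Cyp2e1 (−1.73). In KO:HOM, 5 of 36 lay below the marker median.

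Macrophage markers rose in DN:HOM, 10 of 10 with a median log2 fold change of 3.66 and sums of 181 to 328 CPM in DN:WT and 1201 to 1890 CPM in DN:HOM, and in KO:HOM 9 of 10 rose (median 1.89). The 5 Kupffer cell markers fell in DN:HOM, from sums of 131 to 256 CPM to 1.56 to 3.50 CPM, and 3 of 5 did so in KO:HOM. Of all genes tested, 30% fell in DN:HOM and 7.87% in KO:HOM. Cholangiocyte (5 of 5), stellate cell (5 of 6), neutrophil (4 of 4 tested) and T cell markers (4 of 5) rose in DN:HOM, where 29.1% of all genes did. In KO:HOM the numbers that rose were 1 of 5, 3 of 6, 3 of 4 and 5 of 5, where 11.5% of all genes rose. The part of these cell types in the falls of the 36 genes was not tested, nor in the rises of Oxct1, Acss1, Cpt1c, Ucp2 and Slc27a1.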

How the data were processed

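Polyadenylated RNA of 48 livers was sequenced as stranded libraries. The authors aligned reads with STAR 2.5.0a to GRCm39 and deposited whole-number counts per gene for each liver, without normalization. Of both strands' counts, those with the higher total entered (6.97 to 8.62 times the other). Reads that named no gene (24.0 to 35.0%) were left out.

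Genotypes came from the labels. Tests used edgeR 4.0.16 under R 4.3.3 (filterByExpr, TMM scaling, quasi-likelihood F test on 6 group means, Benjamini-Hochberg threshold 0.05) over 15711 genes. An SE is the absolute log2 fold change divided by the square root of F. The scripts were tested on simulated data. The main comparisons used 46 of 48 livers, and 3 leave-outs were added after the data were seen. Replicates are single mice. In all 24 livers of the knockout study Xist was at 0 to 0.481 CPM and Ddx3y at 76.6 to 108 CPM, as in male mice.

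The gene list, the 86 pathway genes and the 11 marker lists were chosen with earlier results of these data known. All 36 genes are accounted for. Lowest, median and highest levels are given for those past the threshold in the difference of effects and for the largest change per class, and further pathway genes are named if called with a log2 fold change of at least 1 in either direction in a homozygous comparison. Nr1h3 and Ppara are given always, and Fgf21, Angptl4 and Slc16a1 were named after their values were seen. Some pathway genes that the rule names are not reported here.

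Of the 36 genes, 9 share 100-base transcript windows with other genes. Alternatives were all 48 livers, DESeq2 1.42.0, unstranded counts, upper-quartile scaling, library size alone, a CPM filter (mean at least 1), no low-count filter, fits per study and no livers under 10000000 reads. Python 3.11.15 and matplotlib 3.10.9 were used for tables and figures.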

Additional observations from a re-analysis of the deposited data

Results flagged for a closer look

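The effect of the homozygous genotype differed between the studies, by the test of the difference of log2 fold changes (DN minus KO) over 46 livers, for 25 of the 36 genes. All 25 were lower in the knock-in study, where 18.3% of all genes tested were lower. Over all 48 livers 9 of the 36 were lower, as were 6.42% of all genes. The 25 called over the 46 livers are listed by class. In mitochondria these were Acadvl (−0.32), Acadm (−0.64), Acads (−0.61), Hadha (−0.45), Hadh (−0.81), Echs1 (−0.78), Acaa2 (−0.59), Eci1 (−0.88), Decr1 (−0.71), Cpt1a (−0.69), Cpt2 (−0.80), Slc25a20 (−0.60), Etfa (−0.47) and Etfdh (−0.74). In peroxisomes they were Ehhadh (−1.15), Hsd17b4 (−0.99), Acaa1a (−0.69), Acaa1b (−1.51), Pex11a (−1.23) and Abcd3 (−1.12). The thioesterases Acot1 (−1.49), Acot3 (−2.95) and Acot4 (−1.06) and the hydroxylases Cyp4a10 (−3.25) and Cyp4a14 (−2.69) completed the set.

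In 15 of 216 checks (36 genes in 6 groups), 1 liver lay far from the rest of its group by Dixon's test, where chance gives about 1 in 20. DN:HOM animal 33 was such a liver for 6 genes, each time the highest of its group: Acadl at 215 CPM (the others at 166 to 183), Crat at 58.1 CPM (40.0 to 47.6), Ehhadh at 458 CPM (240 to 306), Eci2 at 174 CPM (97.0 to 128), Cyp4a10 at 82.4 CPM (7.45 to 22.9) and Cyp4a14 at 31.6 CPM (1.41 to 8.81). Without this liver, a choice made after seeing the data, 32 of 36 genes fell in DN:HOM and 27 were lower in the difference between the studies. The median log2 fold change in DN:HOM was then −0.85, where that of all genes was −0.02. With the liver kept, 30% of all genes fell in DN:HOM and 18.3% were lower in the difference. These shares were not counted without it. KO:HET animal 9 was lowest for Etfdh at 230 CPM (313 to 363), Hsd17b4 at 493 CPM (610 to 667) and Abcd3 at 482 CPM (633 to 744).

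The remaining such values belonged to single genes. Acadvl was at 418 CPM in KO:WT animal 5 (471 to 506 in the others), and Abcd2 at 46.2 CPM in KO:WT animal 23 (7.97 to 23.1). Acot3 was at 27.5 CPM in DN:WT animal 17 (2.07 to 10.1) and at 19.6 CPM in DN:HET animal 8 (0.188 to 8.78). Pdk4 was at 31.9 CPM in DN:HET animal 20 (4.12 to 16.2), and Ppargc1a at 20.9 CPM in KO:HOM animal 8 (11.3 to 15.5).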

How the results depend on the processing

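Of the 31 genes lower in DN:HOM, 22 kept their call and direction in all 12 other settings, and all 31 did so in those other than all 48 livers, leave-outs and library size alone. Counts were 30 to 32 in each setting except library size alone (23). Of the 25 genes lower in the difference between the studies, 9 kept their call in all 11 settings in which it could be run (each study alone cannot give it). Over all 48 livers 9 were lower in that difference. For leave-outs chosen after seeing the data, the counts lower ranged from 31 to 32 in DN:HOM, from 0 to 2 in KO:HOM and from 17 to 27 in the difference. In KO:HOM the count lower was 0 over all 48 livers, and 2 with unstranded counts and without livers under 10000000 reads (Acot1 and Eci2). Library size alone moved the median of all genes by 0.43 in DN:HOM, 0.12 in KO:HOM and 0.31 in the difference (log2), and made 2 genes higher in DN:HOM and 1 in the difference. Relative to that median, the 36 genes' median stayed at −0.75 in DN:HOM (−0.75 in the main comparison). No paired analysis was possible because animal numbers name single mice and genotypes of a study share none.

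Some log2 fold changes turned positive or, for Fgf21, negative. With library size alone in DN:HOM these were Acadl (0.0068), Hadhb (0.026), Etfb (0.18), Acot8 (0.082), Pdk4 (0.24), Vnn1 (0.0065), Angptl4 (0.13) and Nr1h3 (0.11). In KO:HOM they were Acadm (0.029), Hadhb (0.016), Echs1 (0.014), Eci1 (0.11), Cpt1a (0.11), Cpt2 (0.024), Etfb (0.03), Hsd17b4 (0.1), Acaa1b (0.019), Pex11a (0.041) and Ppargc1a (0.11). In the difference they were Acadl (0.09), Hadhb (0.01), Etfb (0.15), Acot8 (0.16) and Bdh1 (0.012). In KO:HOM, upper-quartile scaling gave Eci1 0.026, Cpt1a 0.033, Hsd17b4 0.025 and Ppargc1a 0.012, and a mean CPM of at least 1 gave Eci1 0.0092, Cpt1a 0.016 and Hsd17b4 0.0084. Each study alone gave Eci1 0.0011, Cpt1a 0.007 and Hsd17b4 0.00014, DESeq2 gave Eci1 7.2e-05 and Cpt1a 0.0062, and Cpt1a was 0.0057 over all 48 livers and without DN:HOM replicate 33. Fgf21 in DN:HOM was −0.022 over 48 livers without DN:HOM replicate 12. The cause of these changes was not tested, apart from the scaling itself. Depth limits Acot3 in DN:HOM (0.09 to 1.28 CPM), where single reads move the level.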

Other observations

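Members of the list differed widely in how constant they were among wild-type livers of 1 study. In DN:WT the highest liver held 1.10 times the CPM of the lowest for Eci2, 1.13 times for Etfa and 1.18 times for Cpt2, and 5.77 times for Cyp4a14, 10.7 times for Abcd2 and 13.3 times for Acot3. In KO:WT the same ratio was 1.17 for Etfa, 5.96 for Cyp4a14 and 11 for Pdk4. Among the DN:HET livers, the SD of log2 CPM (0.1 CPM added) was 2.33 for Cyp4a14 and 1.49 for Cyp4a10, against 0.15 for Echs1.

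Levels per kilobase of exon spanned a wide range. In DN:WT Acaa1b (713 CPM per kilobase) stood first, followed by Ehhadh (200.8), Cyp4a10 (148), Acaa2 (135) and Hsd17b4 (126), and Ppargc1a (0.97) and Acot3 (0.99) last. In KO:WT Acaa1b (475 CPM per kilobase) was again first and Cyp4a10 (260.2) second, and Pdk4 (1.51) was lowest.

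Of the marker lists not given above, B cell markers fell for 1 of 4, endothelial markers for 3 of 5 and erythroid markers for 1 of 3 in DN:HOM, where 30% of all genes fell. Of 4 adipocyte markers, 1 could be tested, Cfd, which is also the source of nearly all reads of the list (Adipoq, Plin1 and Lep had medians of 0 CPM in DN:WT and DN:HOM). The sum of the 4 was 92.0 to 240.4 CPM in DN:WT and 0 to 0.38 CPM in DN:HOM, with 0.15 CPM in the liver labelled DN:WT animal 10 and 110.4 CPM in that labelled DN:HOM animal 12. In KO:WT it was 2.99 to 125 CPM and in KO:HOM 19.1 to 100.5 CPM.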
